A study of Mus musculus with 2 samples.

Results

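The S and G2/M cell cycle genes were followed as a set of 40 genes, 17 of S phase and 23 of G2 and mitosis, among 28365 genes with a transcript in the kept cells. The members were chosen by name from textbook roles in DNA replication and cell division, with earlier results of these data known. All 40 were detected in both libraries. The S members comprise the MCM helicase (Mcm2 to Mcm7), the factors that load and fire origins (Cdc6, Cdc45, Gins2), the sliding clamp and its partners (Pcna, Fen1, Pclaf), nucleotide supply (Tyms, Rrm1, Rrm2) and chromatin and histone supply (Uhrf1, Slbp). The G2/M members comprise cyclins and Cdk1 (Ccna2, Ccnb1, Ccnb2, Cdk1), kinases and checkpoint factors (Aurka, Aurkb, Plk1, Bub1, Birc5), partners of the anaphase-promoting complex (Cdc20, Ube2c), kinetochore, spindle and motor proteins (Cenpe, Cenpf, Kif11, Kif20b, Kif23, Tpx2, Prc1, Nusap1, Ckap2l) and chromosome structure (Mki67, Top2a, Hmgb2).

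Single-cell RNA sequencing had been performed on cells of the femur and tibia of C57BL/6 mice at postnatal day 30, and the question addressed here is how these genes were distributed over cell classes and over both genotypes. Control mice carried the conditional Dach1 transgene without Cre (Dach1OE +/f). In the Dach1OE group (Apj CreERT2 - Dach1OE +/f) the transgene was switched on by a CreERT2 recombinase driven by Apj, also called Aplnr, a gene expressed by a part of the bone endothelium. Both groups received tamoxifen, at P1 and P2 per the methods, and the epiphysis was removed before digestion. Blood cells were depleted with lineage, CD45 and CD117 beads. There was 1 library per group, made from 2 mice of mixed sex, so that no statistical test between genotypes was possible. The 95% intervals given below cover counting error only and not the spread between animals. Those of levels and ratios also count each transcript as independent, although transcripts of many members gathered in a part of the cells. They therefore do not cover the sampling of cells either.

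The genes of S phase act in the copying of DNA, from the licensing of origins by Cdc6 and the MCM ring to the supply of nucleotides and histones, and their transcription is driven at the G1 to S transition by E2F factors. The genes of G2 and mitosis condense and segregate chromosomes. Their promoters are bound by the DREAM and MuvB complexes with B-Myb and FoxM1 through CHR elements, and often hold CCAAT boxes as well. In bone, dividing cells are known among marrow progenitors, in the columns of the growth plate and in the capillaries that grow beneath it.

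The bases before the transcription start show the sequence words that these genes share beyond their names. In the RefSeq promoters of GRCm38.p6, 35 of the 40 members had an entry, and Mcm4, Gins2, Ccna2, Aurkb and Tpx2 had none. Shown here are the 250 bases upstream of 4 members, namely the pair with the most transcripts among members that hold a CHR word (Hmgb2 and Top2a) and the pair with the most among those that hold an E2F word (Cdk1 and Mcm6). Sequences run 5′ to 3′ on the strand of the gene, and the base after the last one is the RefSeq start. Capitals mark the CHR words TTTGAA as well as TTCGAA, the CCAAT box, and the E2F words TTTCCCGC, TTTCGCGC, TTTGCCGC and TTTGGCGC, each searched on both strands, so that a CCAAT box also appears as its reverse complement.
Hmgb2, chr8:57511593-57511842, plus strand: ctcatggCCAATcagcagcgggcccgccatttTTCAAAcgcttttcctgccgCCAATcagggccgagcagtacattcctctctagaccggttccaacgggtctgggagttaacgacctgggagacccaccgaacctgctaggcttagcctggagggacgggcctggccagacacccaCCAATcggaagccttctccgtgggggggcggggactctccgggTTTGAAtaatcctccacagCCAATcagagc
Top2a, chr11:99024190-99024439, minus strand: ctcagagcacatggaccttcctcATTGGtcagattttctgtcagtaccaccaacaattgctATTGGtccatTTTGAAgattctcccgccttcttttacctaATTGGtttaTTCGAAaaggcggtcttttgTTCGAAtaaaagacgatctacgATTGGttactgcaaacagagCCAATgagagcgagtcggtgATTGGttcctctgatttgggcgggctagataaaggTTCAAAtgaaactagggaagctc
Cdk1, chr10:69352913-69353162, minus strand: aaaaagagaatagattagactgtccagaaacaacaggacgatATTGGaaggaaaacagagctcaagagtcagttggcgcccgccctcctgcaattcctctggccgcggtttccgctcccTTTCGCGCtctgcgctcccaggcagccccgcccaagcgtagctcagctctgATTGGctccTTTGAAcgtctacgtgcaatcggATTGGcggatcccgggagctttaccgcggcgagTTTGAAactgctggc
Mcm6, chr1:128359706-128359955, minus strand: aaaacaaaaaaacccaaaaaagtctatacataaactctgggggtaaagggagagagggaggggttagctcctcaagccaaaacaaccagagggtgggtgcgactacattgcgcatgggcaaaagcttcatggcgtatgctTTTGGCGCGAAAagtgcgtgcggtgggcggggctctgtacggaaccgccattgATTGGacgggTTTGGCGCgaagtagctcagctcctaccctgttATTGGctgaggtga
The Hmgb2 window held 2 CHR words and 4 CCAAT boxes, with 1 CHR word 30 bases before the start. The Top2a window held 4 CHR words, the nearest at 23 bases, and 6 CCAAT boxes. Cdk1 was the single G2/M member with an E2F word, at 131 bases, beside 2 CHR words and 3 CCAAT boxes. Mcm6 held 3 E2F words, at 110, 106 and 47 bases, of which the first and second overlap, and no CHR word.

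Over the members with an entry, a CHR word lay in the windows of 10 of 20 G2/M members (50%) and 4 of 15 S members (26.7%), against 19.6% of 27025 genes in the table. An E2F word lay in 5 of 15 S members (33.3%) and 1 of 20 G2/M members (5%), against 2.16% of all genes. CCAAT boxes were found in 17 of 20 G2/M members (85%) and 12 of 15 S members (80%), against 37.5% of all genes. A CHR word and a CCAAT box stood together in 10 G2/M members (50%) and 3 S members (20%), against 7.001% of all genes. No words of different motifs overlapped in a member, and words of the same motif overlapped in 3 members. These are matches of letters in a window and were not tested as binding sites.

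The tables held 28720 cells in the Control and 32028 in the Dach1OE library, with 143986818 and 166999989 unique molecular identifiers (UMIs, each marking 1 captured transcript), and 1049 cell index numbers occurred in both. After the study's filter (500 to 6000 genes, under 25% mitochondrial UMIs) 26466 and 29317 cells remained, with medians of 3794 and 4055 UMIs. Cells were sorted into classes by fixed marker lists, with a threshold set after the data had been seen, and none of the members was used. This gave 8959 and 9382 endothelial-like cells (ECs), 6261 and 5178 stromal-like cells, 3901 and 5408 chondrocyte-like cells and 3442 and 3890 haematopoietic-like cells in the Control and the Dach1OE library, called by the short names below. Cells whose markers were mixed between classes (2520 and 3005), ungated (384 and 443) or mural (999 and 2011) were set apart. A second marker list that was not used for gating was highest in its own class in all 4 cases, and no marker was at 0 in any class. Although the labels call the cells non-haematopoietic, 1705 and 1996 cells were gated as erythroid and 1269 and 1454 as leukocytes. Dach1 was at 4.76 CPM (UMIs scaled to 1000000 UMIs of the class) in Control ECs and at 204 CPM in Dach1OE ECs.

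**Figure D1:**
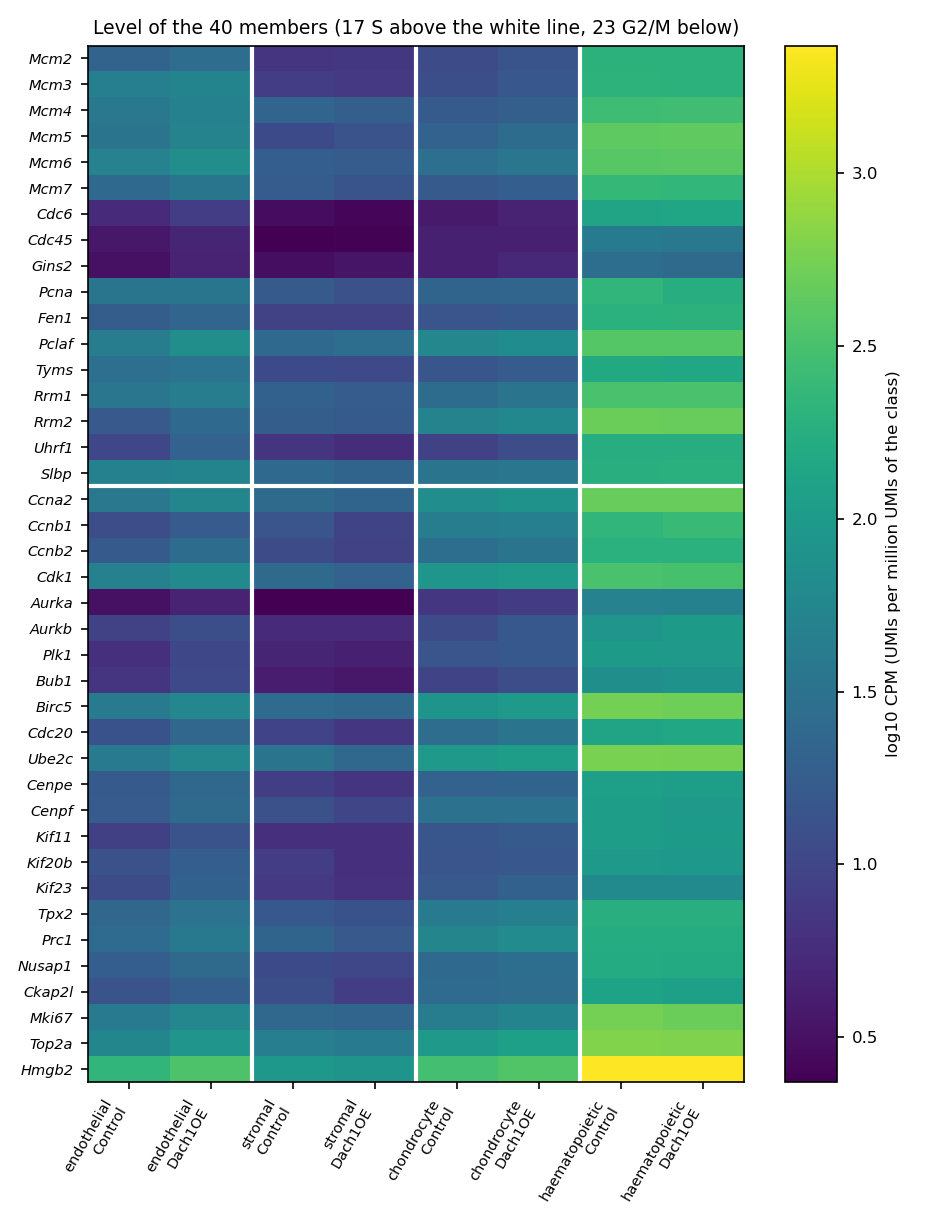
Heat map of the level of each of the 40 members (rows, S members above the white line) in the 4 classes and both libraries (columns), as log10 CPM of the summed UMIs. The haematopoietic columns are the brightest in every row, and levels are to be compared along a row and not between genes, since they are not per length.

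The members were highest in haematopoietic cells and, for most of them, lowest in stromal cells. Summed over the 17 S members, the level was 4019 CPM in the Control and 3971 CPM in the Dach1OE library for haematopoietic cells, 459 and 603 CPM for ECs, 349 and 406 CPM for chondrocytes, and 223 and 210 CPM for stromal cells. Summed over the 23 G2/M members it was 7427 and 7316 CPM in haematopoietic cells, 1158 and 1343 CPM in chondrocytes, 696 and 1039 CPM in ECs, and 428 and 360 CPM in stromal cells. ECs thus stood above chondrocytes for the S list and below them for the G2/M list in both libraries.

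All 40 members had their highest level in haematopoietic cells in both libraries, with an interval that did not meet that of the next class. The lowest class was stromal for 36 members in the Control and 39 in the Dach1OE library. The interval of the lowest class lay below that of the next for 32 and 38 members. The haematopoietic level was a median of 9.05 times the EC level for S members in Control, from 3.65 for the histone mRNA binding protein Slbp to 31.2 for the ribonucleotide reductase subunit Rrm2. For G2/M members the median was 10.5 times, from 5.41 for the central spindle motor Kif23 to 18.7 for cyclin B1 (Ccnb1). In Dach1OE these medians were 6.71 and 7.09 times.

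Members differed in which of ECs and chondrocytes was higher. In Control, all 23 G2/M members were higher in chondrocytes than in ECs, with a median of 1.78 times, whereas only 4 of 17 S members were. Among S members the ratio of chondrocytes to ECs ran from 0.270 for Mcm3, a subunit of the helicase, to 3.24 for Rrm2, and among G2/M members it reached 3.53 for Ccnb1. In Dach1OE, 20 of 23 G2/M members and 2 of 17 S members were higher in chondrocytes, with medians of 1.36 and 0.587 times. The S members made up 39.8% of all member transcripts in ECs of the Control and 36.7% in those of the Dach1OE library, against 23.1% and 23.2% in chondrocytes, 34.3% and 36.9% in stromal cells and 35.1% and 35.2% in haematopoietic cells.

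In ECs the members were higher in the Dach1OE than in the Control library. Summed S members were at 459 CPM (13692 UMIs) in Control and 603 CPM (18260 UMIs) in Dach1OE, a log2 ratio of 0.39 (interval 0.36 to 0.42). Summed G2/M members were at 696 CPM (20746 UMIs) and 1039 CPM (31482 UMIs), a log2 ratio of 0.58 (0.55 to 0.60). All 40 ratios were above 0, with a median of 0.53 against 0.028 over all 15806 genes with at least 20 UMIs, and 38 of the 40 intervals lay above 0. Over all genes 54.4% of ratios and 26% of intervals lay above 0. The 2 whose interval reached 0 were Pcna, the sliding clamp itself, and Slbp.

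A ratio of 1.5-fold was passed upwards by 14 of 40 members in ECs, 5 of S phase and 9 of G2/M, against 9.45% of all genes tested. No member was 1.5-fold lower, against 9.29% of all genes. The 14 were Mcm5, Cdc6, Pclaf, Rrm2, Uhrf1, Ccna2, Ccnb2, Plk1, Bub1, Cdc20, Kif11, Kif23, Top2a and Hmgb2, and they came from every role group of the set. Over the 17 S members the median log2 ratio was 0.41, and over the 23 G2/M members it was 0.55 with a range of 0.39 to 0.82, so that the G2/M members were the more uniform.

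**Figure D2:**
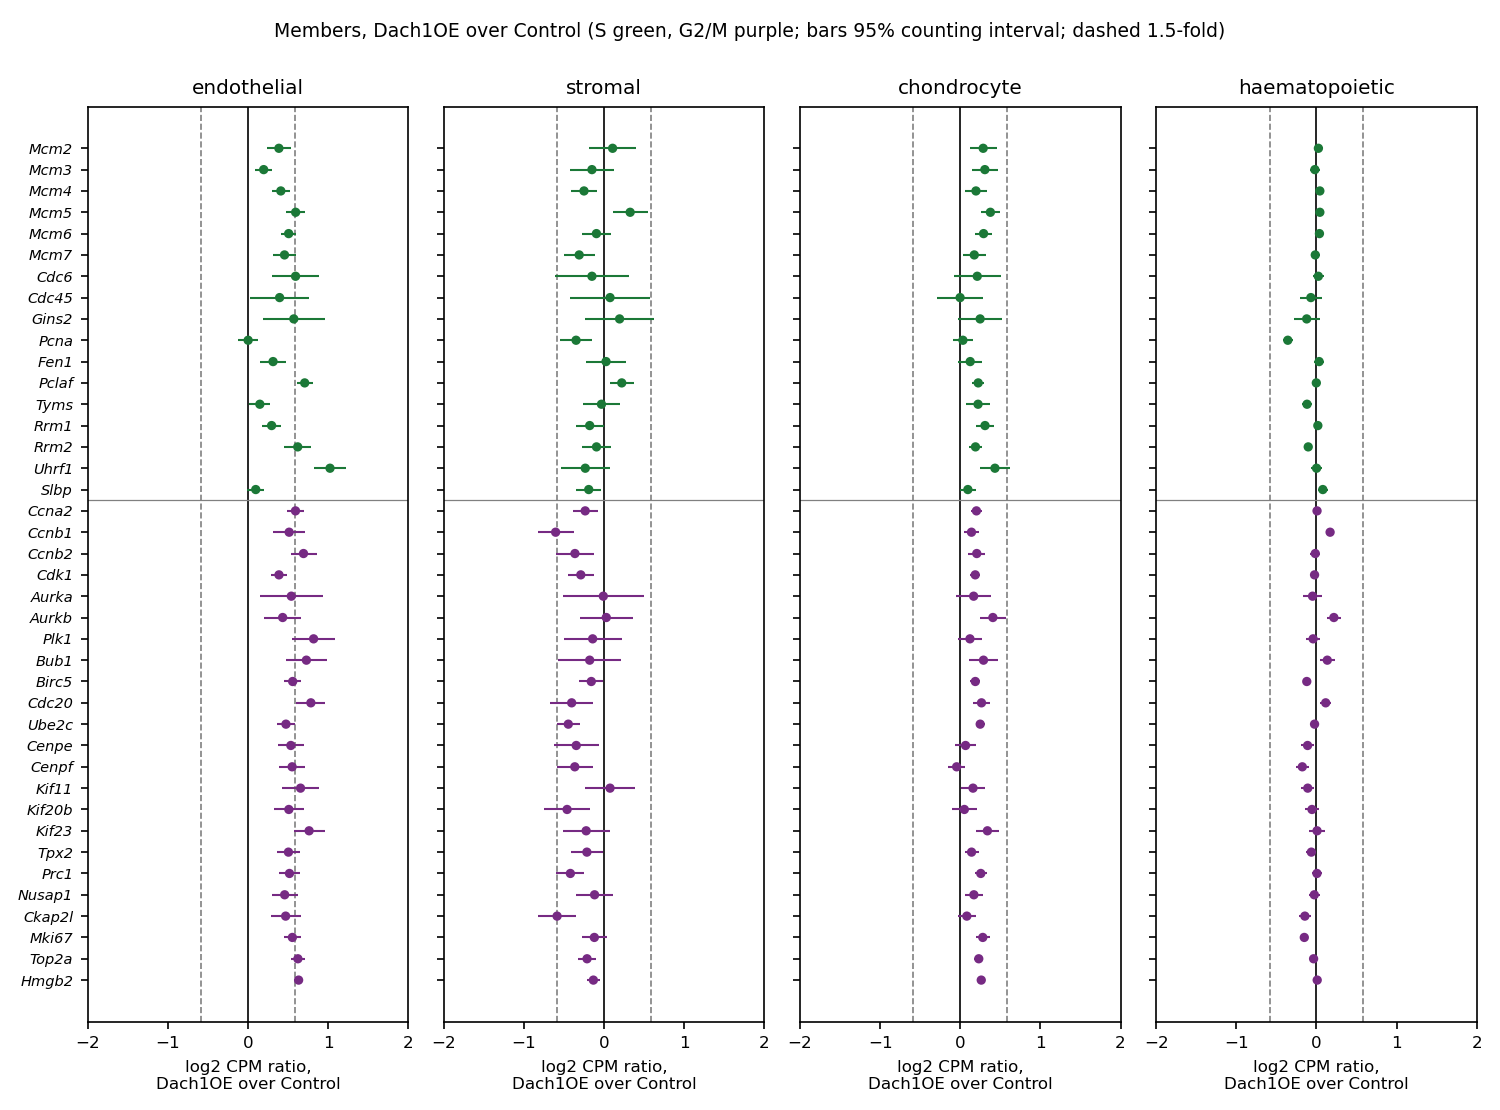
Log2 ratio of the CPM in Dach1OE over Control (x axis) for each member (rows, S members in green, G2/M members in purple) in 4 panels, 1 per class, with bars for the 95% counting interval and dashed lines at 1.5-fold. All 40 points lie right of 0 in the endothelial panel, 38 in the chondrocyte panel, 17 in the haematopoietic panel and 8 in the stromal panel.

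Among the replication genes in ECs, the MCM helicase summed to 212 CPM in Control and 285 CPM in Dach1OE (log2 ratio 0.43). Mcm6, its member with the most UMIs, was at 49.7 and 70.7 CPM (0.51, interval 0.41 to 0.60). Mcm5 was at 33.8 and 51.1 CPM, the largest ratio of the helicase (0.48 to 0.71), and Mcm3 had the smallest (0.20, 0.09 to 0.30). Cdc6, which loads the helicase onto origins, was at 5.40 and 8.16 CPM (0.30 to 0.89), and the origin group as a whole was at 12.3 and 17.7 CPM (0.53). The origin group was the smallest role group by UMIs in ECs, with 365 in Control and 536 in Dach1OE.

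The clamp group was split. Pclaf, a small protein that binds the clamp during replication, was at 43.4 CPM in Control and 70.8 CPM in Dach1OE ECs (0.71, 0.61 to 0.81), whereas Pcna was at 34.4 and 34.5 CPM (0.002, -0.12 to 0.13). The intervals of these partners in the same step of replication did not meet. The low ratio of Pcna was not particular to ECs. It was also the lowest of the S list in stromal (-0.35) and haematopoietic cells (-0.36), though not in chondrocytes. In nucleotide supply, Rrm2 was at 15.97 and 24.6 CPM (0.62, 0.45 to 0.79), while the thymidylate synthase Tyms was at 29.6 and 32.8 CPM (0.15, 0.02 to 0.28). Uhrf1, which maintains DNA methylation on newly copied strands, was at 10.1 and 20.5 CPM and had the largest ratio of all members (1.02, 0.82 to 1.23). Slbp was at 48.7 and 52.1 CPM (0.10, -0.01 to 0.20).

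The genes of G2 and mitosis were higher in Dach1OE ECs in each role group, with log2 ratios of the summed levels of 0.52 for cyclins and Cdk1, 0.58 for kinases and checkpoint factors, 0.56 for partners of the anaphase-promoting complex, 0.54 for kinetochore and motor proteins and 0.62 for chromosome structure. Cyclin A2 (Ccna2), which acts in S phase and G2, was at 37.4 CPM in Control and 56.4 CPM in Dach1OE (0.48 to 0.70). Cyclin B2 (Ccnb2) was at 16.6 and 26.9 CPM (0.69, 0.53 to 0.86). Cdk1, the kinase that both partner with, had the smallest ratio of the G2/M list at 49.2 and 64.4 CPM (0.39, 0.29 to 0.48).

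Among the kinases, Plk1, which acts at spindle poles and kinetochores, was at 5.97 CPM in Control and 10.5 CPM in Dach1OE ECs (0.82, 0.55 to 1.09). The chromosomal passenger protein survivin (Birc5) was at 38.8 and 57.2 CPM (0.56, 0.45 to 0.67). Cdc20, an activator of the anaphase-promoting complex, was at 13.3 and 22.95 CPM (0.79, 0.60 to 0.97), and Ube2c, its ubiquitin-conjugating enzyme, was at 40.7 and 56.5 CPM (0.47, 0.37 to 0.58). Each of these genes was higher in Dach1OE with an interval clear of 0.

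In the group of kinetochore, spindle and motor proteins, Prc1, which bundles microtubules of the central spindle, was at 26.3 CPM in Control and 37.7 CPM in Dach1OE ECs (0.52, 0.39 to 0.65), and Kif23 was at 11.8 and 20.04 CPM (0.76, 0.57 to 0.96). Hmgb2, a chromatin protein and the member with the most UMIs, was at 220 and 341 CPM (0.63, 0.59 to 0.68). Top2a, the topoisomerase that untangles sister chromatids, was at 55.5 and 85.5 CPM (0.62, 0.53 to 0.71). Hmgb2 and Top2a, whose upstream sequences stand above, thus had ratios within each other's interval, and Cdk1 and Mcm6, the pair with E2F words, lay at 0.39 and 0.51.

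The EC ratios depended on how the subgroups were weighted. ECs passing marker lists of sinusoidal vessels numbered 5376 in Control and 3488 in Dach1OE, those of metaphyseal vessels 723 and 1112, those of arteries 332 and 1187, and 2528 and 3595 passed none. With the shares of these subgroups held at those of the Control library, the log2 ratio was 0.24 for S and 0.31 for G2/M members, in place of 0.39 and 0.58. The arterial list held Dll4 and Sox17, which the study reports as raised in Dach1OE ECs. The sinusoidal list held Stab2, Flt4 and Gpr182, which it reports as lowered. The metaphyseal list held Aplnr, the gene of the Cre driver. A subgroup was therefore not shown to hold the same kind of cells in both libraries. Within ECs with Y-linked UMIs the G2/M ratio was 0.90, and within ECs with Xist it was 0.42.

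Metaphyseal ECs had the highest member levels of the EC subgroups in both libraries. Their summed S members were at 720 CPM in Control and 1014 CPM in Dach1OE (0.49, 0.41 to 0.58) and their summed G2/M members at 1654 and 2054 CPM (0.31, 0.26 to 0.37). All 17 S members and 21 of 23 G2/M members had ratios above 0, with 8 and 6 intervals clear of it, whereas over all genes of these cells 52% of ratios and 11.3% of intervals lay above 0. Pclaf was at 106 and 186 CPM there (0.81, 0.60 to 1.03), Hmgb2 at 377 and 591 CPM (0.65, 0.54 to 0.76), and the proliferation antigen Mki67 at 111 and 116 CPM (0.06, -0.17 to 0.29).

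Sinusoidal ECs had the lowest levels of the EC subgroups in Control, at 378 CPM for S and 464 CPM for G2/M members. In Dach1OE the values were 415 and 540 CPM (0.13, 0.08 to 0.19, and 0.22, 0.17 to 0.27). Ratios above 0 were seen for 14 of 17 S and 15 of 23 G2/M members, and for 55.4% of all genes. Uhrf1 was at 6.53 and 9.91 CPM (0.60, 0.21 to 0.99), the largest S ratio in these cells.

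Arterial ECs went the other way in their summed levels. Their S members summed to 511 CPM in Control and 390 CPM in Dach1OE (-0.39, -0.53 to -0.25), and their G2/M members to 1135 and 749 CPM (-0.60, -0.70 to -0.50). Of the members with at least 20 UMIs there, 10 of 14 S and 22 of 22 G2/M members had ratios below 0, against 47.1% of all genes, and 3 and 14 had intervals below 0, against 10.5%. The MCM helicase was at 179 and 181 CPM (0.017, -0.21 to 0.26). Pclaf was at 111 and 41.7 CPM (-1.41, -1.76 to -1.06) and Top2a at 111 and 68.4 CPM (-0.70, -1.02 to -0.38). The arterial values in Control rest on 332 cells with 542 S and 1205 G2/M UMIs, and no order is read from the arterial shares of cells given below.

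The share of cells carrying several members at once was compared after each cell had been thinned to 1000 UMIs, which takes differences in depth out. In ECs, 560 of 8713 Control cells (6.43%, 5.92 to 6.96) and 933 of 9034 Dach1OE cells (10.3%, 9.71 to 11.0) had UMIs of 3 or more different members, a difference of 3.90 points (3.09 to 4.71). Shallower cells, 246 and 348, were left out, and without thinning the shares were 24.0% and 28.8%. Cells without any member at the thinned depth made up 57.3% and 51.1%. Of the cells with 3 or more members, 415 in Control and 735 in Dach1OE had both S and G2/M members, 94 and 121 had G2/M members alone, and 51 and 77 had S members alone, so that most could not be placed in 1 phase. The lowest share in any class or list was that of osteoblast-gated cells in Dach1OE, 2.96%, and the part that free RNA has in these shares was not tested.

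By subgroup, 14.5% of metaphyseal ECs in Control and 20.9% in Dach1OE carried 3 or more members (6.38 points, 2.72 to 9.89). In sinusoidal ECs the shares were 4.12% and 5.33% (1.21 points, 0.30 to 2.17; 21.9% and 22.1% without thinning), in ECs without a subgroup 8.95% and 13.8%, and in arterial ECs 7.81% (25 cells) and 4.77% (55 cells), a difference of -3.04 points (-6.68 to -0.21). Without thinning the arterial shares went the other way, at 19.0% and 21.7%, and arterial ECs without any member made up 61.9% and 58.0% at the thinned depth, so that no order of the arterial shares is read from these values. With the subgroups held at the Control shares the difference over all ECs was 2.48 points. The direction in all ECs was the same among cells told by sex, at 7.60% and 11.4% for cells with Xist and 6.34% and 10.9% for cells with Y-linked UMIs. In sinusoidal ECs the differences by sex were 1.501 points (-0.25 to 3.37) and 0.22 points (-1.42 to 2.07), and both intervals reach 0. In metaphyseal ECs they were 5.87 points (-0.76 to 12.25) with Xist, where the interval reaches 0, and 10.62 points (1.61 to 18.5) with Y-linked UMIs.

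**Figure D3:**
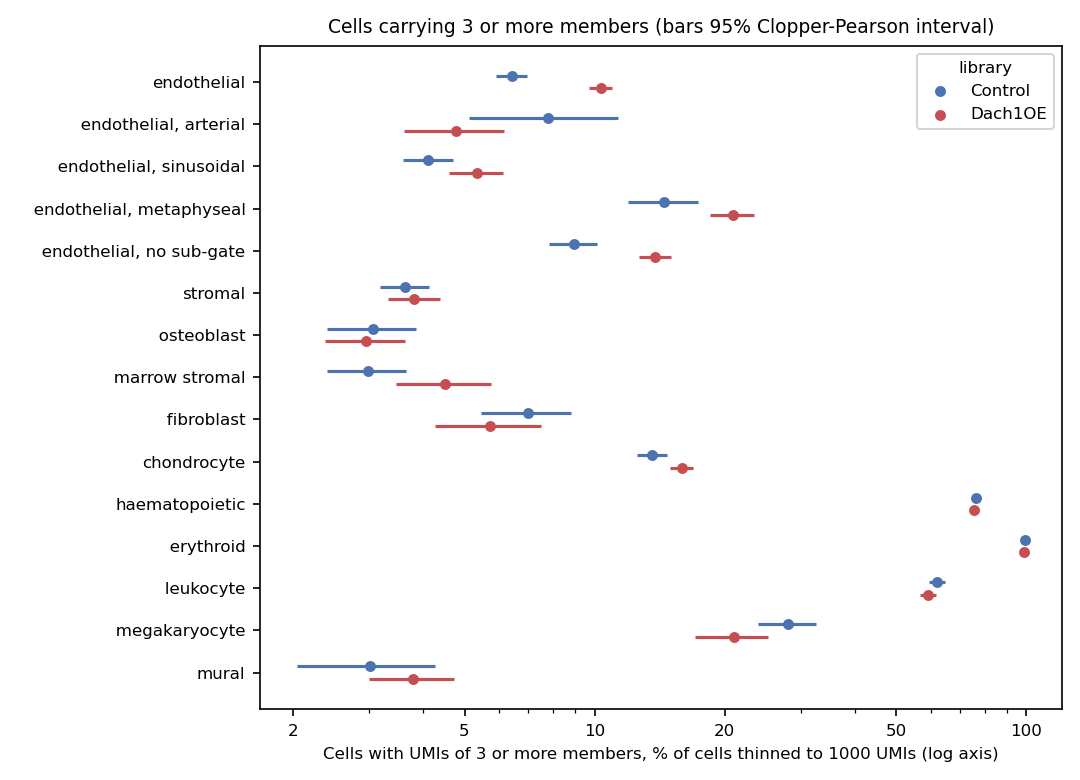
Share of cells with UMIs of 3 or more members after thinning to 1000 UMIs per cell (x axis, log scale) in each class and, indented, each marker list or EC subgroup (rows), with Control and Dach1OE points and 95% Clopper-Pearson intervals. Erythroid cells lie at 99% in both libraries, ECs at 6.43% and 10.3%, and metaphyseal ECs at 14.5% and 20.9%.

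Within Dach1OE ECs, cells with and without a Dach1 UMI at the thinned depth were compared. Of ECs with a Dach1 UMI, 155 of 1568 (9.89%) carried 3 or more members, and of those without one 778 of 7466 (10.4%), a difference of -0.54 points (-2.09 to 1.18). In metaphyseal ECs the shares were 26.6% and 19.9% (6.67 points, -0.16 to 14.5). The difference was -1.80 points in arterial ECs, -0.54 points in sinusoidal ECs and -1.44 points in ECs without a subgroup. The intervals of all 5 differences reach 0. Before thinning, median depth was 2713 UMIs per cell in ECs with a Dach1 UMI and 2786 in those without. Cells without a Dach1 UMI at the thinned depth can hold one in their full counts. They are therefore not shown to lack the transcript or the transgene.

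The level inside ECs with 3 or more members, and inside the other ECs, was also compared at the thinned depth. ECs with 3 or more members held 2.49 S UMIs per cell in Control and 2.70 in Dach1OE (log2 0.11, 0.02 to 0.21) and 5.65 and 5.92 G2/M UMIs (0.07, 0.00 to 0.13). The other ECs held 0.272 and 0.287 S UMIs per cell (0.08, -0.01 to 0.16) and 0.223 and 0.285 G2/M UMIs (0.35, 0.27 to 0.44). All 4 values were higher in Dach1OE, but the S ratio of the other ECs had an interval that reached 0. The split was set by the same thinned member counts that were then compared, which bounds the levels in both parts. These ratios therefore cannot tell a change in level per cell from a change in the share of cells, and neither is read from them.

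How far a member's transcripts lay in cells that carried at least 3 other members differed widely. In ECs the share for Pclaf was 83.1% of its UMIs in Control and 84.4% in Dach1OE, and for Bub1, a kinase of the spindle checkpoint, 88.9% and 82.0%. For Slbp it was 12.9% and 23.5%, for Pcna 17.5% and 35.8%, for Mcm3 18.3% and 30.1% and for Hmgb2 31.3% and 44.5%. At this depth most UMIs of Slbp, Pcna and Mcm3 thus lay in ECs with fewer than 3 other members. Without thinning, more ECs carried 3 or more members (24.0% in Control and 28.8% in Dach1OE), so these shares hold for the thinned depth only. The median over S members was 29.9% in Control and 42.8% in Dach1OE ECs, and over G2/M members 71.6% and 78.8%, while such cells made up 5.42% to 6.42% of Control and 8.96% to 10.3% of Dach1OE ECs, depending on the member left out.

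The other classes showed the same order of S below G2/M members. In chondrocytes the medians were 55.9% and 59.1% for S members and 89.4% and 89.1% for G2/M members, where such cells made up 12.8% to 13.6% of the Control and 14.7% to 15.9% of the Dach1OE class. In stromal cells they were 28.3% and 31.1%, and 70.9% and 73.1%, where such cells made up 3.27% to 3.64% and 3.46% to 3.83%. In haematopoietic cells they were 94.96% and 95.4%, and 98.3% and 98.3%, but such cells were 73.9% to 76.3% and 73.3% to 75.8% of the class, so these heights are not comparable with those of the other classes.

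**Figure D4:**
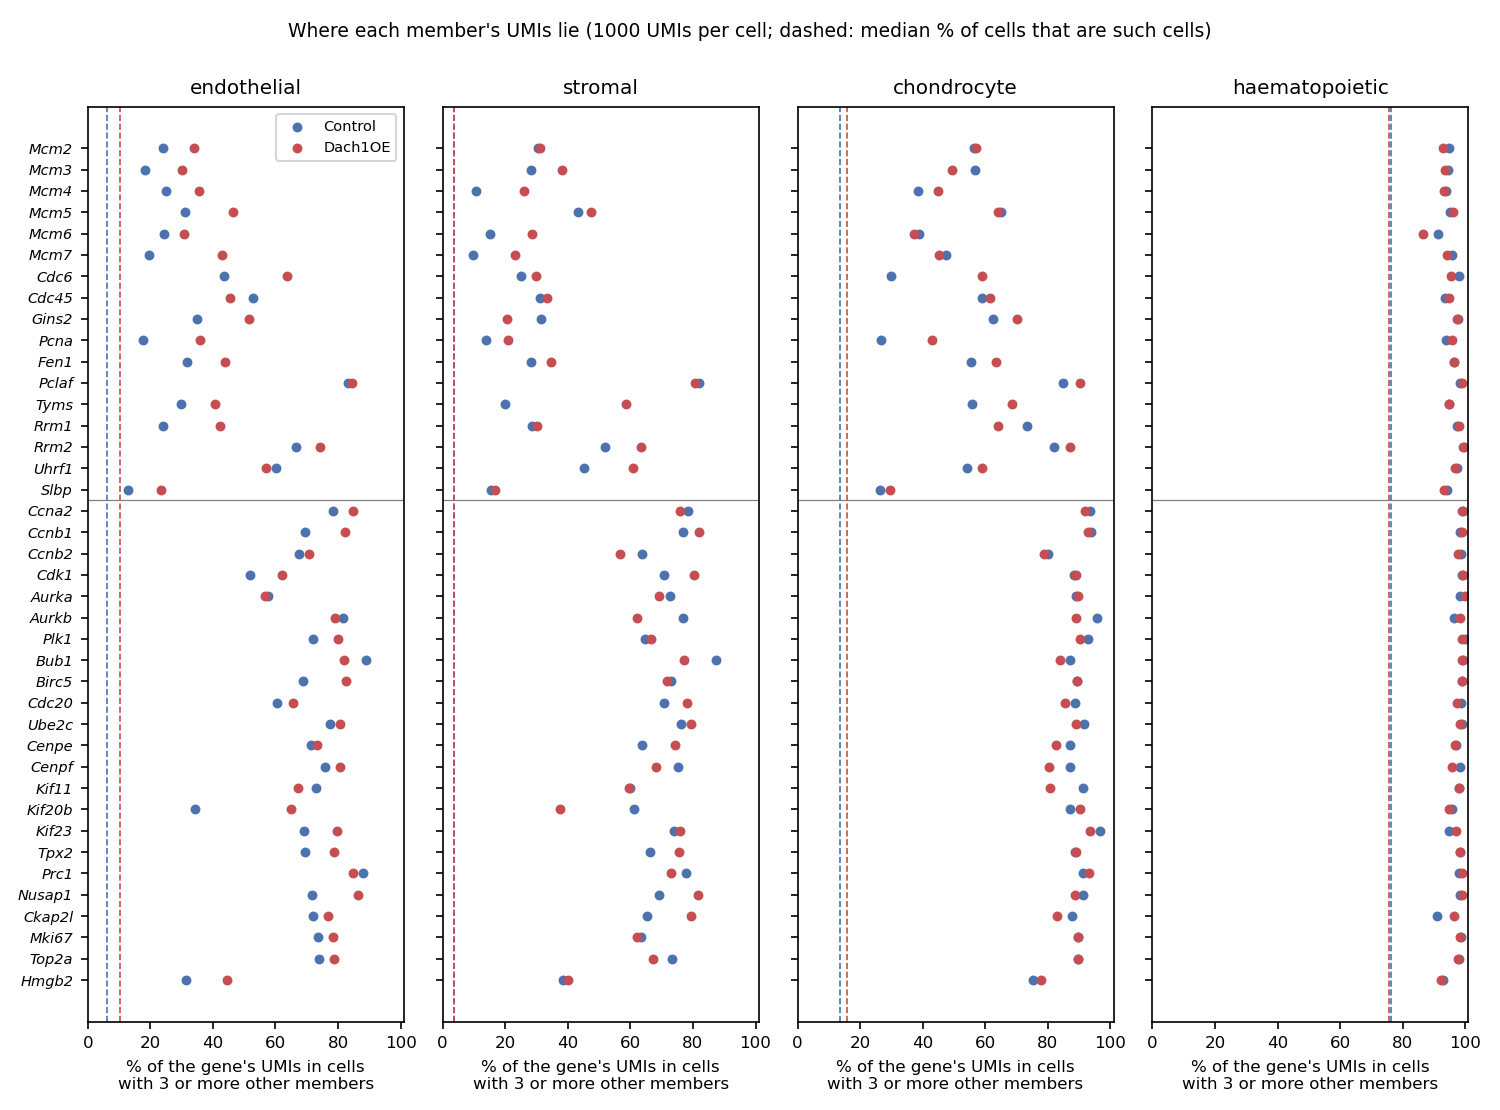
Percent of the UMIs of each member (rows) that lay in cells carrying 3 or more other members at 1000 UMIs per cell (x axis), in panels by class with Control and Dach1OE points, and a dashed line at the median percent of cells that are such cells. In ECs Slbp has the lowest values of the Control library, 12.9%, and Bub1 the highest, 88.9%.

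In stromal cells the members were lower in Dach1OE by CPM, and here the scale of the counts matters. Over all 16347 genes tested the median log2 ratio was -0.19, and scaling by trimmed mean of M-values (TMM) moved every stromal ratio up by 0.19. Osteoblast markers took up 193119 CPM of the stromal UMIs in Control and 251382 CPM in Dach1OE. Summed S members were at 223 and 210 CPM (-0.084, -0.14 to -0.033), which TMM scaling turned to 0.105. Summed G2/M members were at 428 and 360 CPM (-0.25, -0.29 to -0.21), and at -0.059 with TMM scaling. The G2/M ratio was -0.41 in stromal cells with Xist and -0.39 in those with Y-linked UMIs.

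No stromal member was 1.5-fold higher, against 3% of all genes, and 2 of 40 were 1.5-fold lower, against 14.2%. The 2 were cyclin B1 (Ccnb1), at 14.6 CPM in Control and 9.59 CPM in Dach1OE (-0.60, -0.83 to -0.38), and the spindle protein Ckap2l, at 12.4 and 8.27 CPM (-0.59, -0.83 to -0.35), and neither passed 1.5-fold with TMM scaling. The median was -0.10 over S and -0.22 over G2/M members, so both lists lay within 0.10 of the median of all genes. Ube2c was at 33.3 and 24.5 CPM (-0.45, -0.59 to -0.30), Top2a at 45.3 and 39.1 CPM (-0.21, -0.33 to -0.10), Mcm5 at 11.0 and 13.8 CPM (0.33, 0.11 to 0.54) and Uhrf1 at 6.79 and 5.77 CPM (-0.24, -0.54 to 0.07). Only Mcm5 and Pclaf had intervals above 0, that is 2 of 40 members, against 7.61% of all stromal genes. Intervals below 0 were found for 20 of 40 members, against 40.7% of all stromal genes.

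The stromal lists differed among themselves. In cells gated as marrow stromal, of which there were 3021 in Control and 1375 in Dach1OE, S members summed to 304 and 393 CPM (0.37, 0.28 to 0.46) and G2/M members to 469 and 630 CPM (0.42, 0.36 to 0.49). Of their members 15 of 17 and 21 of 23 had ratios above 0, against 50.3% of all genes of these cells, whose median ratio was 0.002. Pclaf was at 26.5 and 58.6 CPM (1.14, 0.89 to 1.40) and Mki67 at 22.96 and 37.9 CPM (0.72, 0.42 to 1.02).

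In osteoblast-gated cells (2279 and 2946) S members summed to 144.2 and 144.4 CPM (0.002, -0.08 to 0.08) and G2/M members to 239 and 214 CPM (-0.16, -0.22 to -0.09). In fibroblast-gated cells (961 and 857) they summed to 337 and 378 CPM (0.17, 0.06 to 0.28) and to 1050 and 902 CPM (-0.22, -0.29 to -0.15). Ccnb1 was lower in both, at 8.09 and 5.35 CPM in osteoblasts (-0.60, -0.98 to -0.22) and at 44.2 and 29.0 CPM in fibroblasts (-0.61, -0.98 to -0.25). With the shares of the 3 lists held at those of the Control library, the stromal ratio was 0.21 for S and 0.059 for G2/M members, above 0 for both. The share of stromal cells with 3 or more members was 3.64% in Control and 3.83% in Dach1OE (0.19 points, -0.51 to 0.90). In marrow stromal cells it was 2.99% and 4.51% (1.52 points, 0.33 to 2.88), in osteoblast-gated cells 3.08% and 2.96% and in fibroblast-gated cells 7.01% and 5.73%. The marrow stromal difference was 0.50 points (-1.38 to 2.88) in cells with Xist and 1.14 points (-1.28 to 4.20) in those with Y-linked UMIs, and both intervals reach 0.

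**Figure D5:**
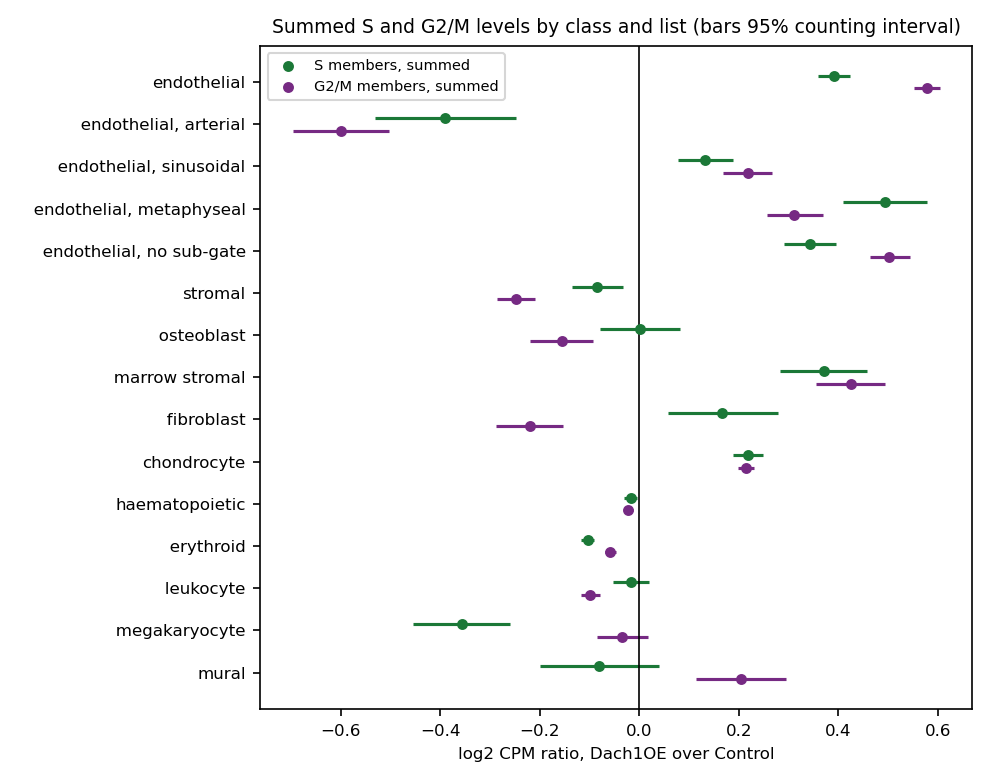
Log2 ratio of the summed S (green) and summed G2/M (purple) levels in Dach1OE over Control (x axis) for each class and, indented, each list or EC subgroup (rows), with 95% counting intervals. Metaphyseal ECs and marrow stromal cells lie right of 0 for both lists, and arterial ECs lie left of 0 for both, at -0.39 and -0.60.

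In chondrocytes the members were slightly higher in the Dach1OE library. S members summed to 349 CPM in Control and 406 CPM in Dach1OE (0.22, 0.19 to 0.25), and G2/M members to 1158 and 1343 CPM (0.21, 0.20 to 0.23). Of the 40 ratios, 38 were above 0 and 28 had intervals clear of it, with a median of 0.20 against -0.020 over all genes, of which 45.8% had ratios and 13.9% intervals above 0. None was 1.5-fold higher, against 3%, or 1.5-fold lower, against 8.57%.

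Uhrf1 had the largest ratio in chondrocytes too, at 8.90 CPM in Control and 12.02 CPM in Dach1OE (0.43, 0.25 to 0.62). Mcm5 was at 20.5 and 26.6 CPM (0.38, 0.25 to 0.50), Aurkb, the kinase of the chromosomal passenger complex, at 11.8 and 15.6 CPM (0.41, 0.25 to 0.57), Kif23 at 15.9 and 20.2 CPM (0.34, 0.20 to 0.48) and Ube2c at 95.3 and 113 CPM (0.25, 0.19 to 0.31). The kinetochore protein Cenpf was at 31.6 and 30.7 CPM, with the lowest ratio of the class (-0.04, -0.15 to 0.06).

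The chondrocyte ratios differed between cells told by sex. Among chondrocytes with Xist, G2/M members were at 1338 CPM in Control and 1368 CPM in Dach1OE (0.032, 0.008 to 0.057), and among those with Y-linked UMIs at 873 and 1282 CPM (0.56, 0.52 to 0.59). For S members the ratios were 0.30 and 0.16. With 2 mice of mixed sex per library, a split by sex is also a split by mouse. Sex and mouse cannot be told apart here, and with 1 library per genotype these differences were not tested. Cells with Xist made up 63.1% of the chondrocytes told by sex in Control and 49.1% in Dach1OE. The share of chondrocytes with 3 or more members was 13.6% and 15.9% (2.32 points, 0.86 to 3.76).

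In haematopoietic cells the summed levels differed little between the libraries. S members summed to 4019 CPM in Control and 3971 CPM in Dach1OE (-0.017, -0.030 to -0.004), and G2/M members to 7427 and 7316 CPM (-0.022, -0.031 to -0.012). With cells under 10% mitochondrial UMIs the S ratio was 0.014, and in cells with Xist 0.033, both on the other side of 0, and in cells with Y-linked UMIs it was -0.14. With the shares of the lists held at those of the Control library the ratios were -0.10 and -0.067. The median over the 40 was -0.016 and the range -0.36 to 0.22, with 6 intervals above 0 and 11 below it, against 11.6% and 13.8% of all genes. None was 1.5-fold higher, against 3.38% of all genes, or 1.5-fold lower, against 6.83%. Pcna stood apart at 221 and 172 CPM (-0.36, -0.42 to -0.30). At the other end was Aurkb, at 86.3 and 100.3 CPM (0.22, 0.13 to 0.31), followed by Ccnb1 at 223 and 251 CPM (0.17, 0.12 to 0.23). Birc5 was at 559 and 514 CPM (-0.12, -0.16 to -0.08), Mki67 at 555 and 500.4 CPM (-0.15, -0.19 to -0.11) and Cenpf at 109 and 96.1 CPM (-0.18, -0.26 to -0.09).

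Among the haematopoietic lists, erythroid cells had the highest levels, at 5461 CPM in Control and 5082 CPM in Dach1OE for S members (-0.10, -0.12 to -0.09) and 8607 and 8267 CPM for G2/M members (-0.06, -0.07 to -0.05). Leukocytes followed at 2003 and 1980 CPM for S members and 6607 and 6173 CPM for G2/M members (-0.10, -0.12 to -0.08). The share of cells with 3 or more members was 99.2% and 99.0% in erythroid cells, 62.2% and 59.2% in leukocytes, 28.1% and 21.0% in megakaryocyte-gated cells (-7.13 points, -12.9 to -1.31) and 76.3% and 75.8% over the whole class (-0.51 points, -2.47 to 1.47). Pcna was lower in Dach1OE in both lists, at 306 and 225 CPM in erythroid cells (-0.44, -0.51 to -0.38) and 88.9 and 70.5 CPM in leukocytes (-0.34, -0.52 to -0.15), and the ratio of Aurkb was above 0 in both.

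The rest of the cell cycle pathway was read from a list of 104 other genes, 36 of S phase, 48 of G2 and mitosis and 20 transcriptional regulators. In ECs, 15 of the 36 S genes and 17 of the 48 G2/M genes were 1.5-fold higher in Dach1OE, against 9.45% of all genes, and none was lower, against 9.29%. The median was 0.49 for both lists. The microtubule-binding Psrc1 was at 2.79 CPM in Control and 6.04 CPM in Dach1OE (1.12, 0.74 to 1.51), the origin recognition subunit Orc1 at 1.28 and 2.61 CPM (1.03, 0.46 to 1.63) and the kinase Melk at 4.83 and 9.61 CPM (0.99, 0.70 to 1.29). Each of these ratios had an interval clear of 0.

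Of the 20 regulators in ECs, 2 were 1.5-fold higher and none was lower, a share near the 9.45% and with a median of 0.05 near the 0.028 of all EC genes. E2f1, an activator of S phase genes, was at 11.2 CPM in Control and 20.5 CPM in Dach1OE (0.86, 0.67 to 1.06). Foxm1 and Mybl2, which activate G2/M genes, were at 5.23 and 7.13 CPM (0.45, 0.14 to 0.75) and at 4.56 and 5.94 CPM (0.38, 0.05 to 0.71). Rb1, which restrains E2F factors, was at 46.1 and 39.3 CPM (-0.23, -0.34 to -0.12), and its relative Rbl2 at 17.04 and 16.9 CPM (-0.01, -0.19 to 0.17). Myc was at 32.9 and 48.5 CPM (0.56, 0.45 to 0.68).

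In the other classes few pathway genes passed 1.5-fold. In stromal cells 1 of 48 G2/M genes, the separase Espl1 (3.11 CPM in Control and 2.02 CPM in Dach1OE), and 1 of 20 regulators, Foxm1 (4.41 and 2.50 CPM, -0.82, -1.26 to -0.39), were 1.5-fold lower, both counts being below the 14.2% of all stromal genes, and none was higher, against 3%. In chondrocytes none was higher, against 3% of all genes, or lower, against 8.57%, and the largest ratio was that of the microtubule destabiliser Stmn1, at 98.4 and 143 CPM (0.54, 0.48 to 0.59). In haematopoietic cells none was higher, against 3.38%, or lower, against 6.83%. There E2f7, a repressor of the E2F family, had a ratio below 0, at 15.9 and 12.7 CPM (-0.32, -0.54 to -0.10).

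Markers of other cell types differed between the libraries in ECs as well. In ECs the 12 osteoblast markers summed to 1798 and 2508 CPM in Control and Dach1OE, respectively, the chondrocyte markers to 1312 and 1786 CPM, the marrow stromal markers to 700 and 984 CPM, the leukocyte markers to 239 and 263 CPM and the mural markers to 1801 and 913 CPM. None of these markers was at 0 in ECs, and their part in the EC values of the members was not tested. The erythroid markers, whose own cells carry the highest member levels, were at 19.1 and 22.4 CPM in ECs against 1961 and 1989 CPM in haematopoietic cells, and the leukocyte markers were at 2023 and 1786 CPM there. The haematopoietic check list was at 81.3 and 74.4 CPM in ECs against 727 and 764 CPM in haematopoietic cells.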

How the data were processed

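Cells of 2 tamoxifen-treated groups, Control and Dach1OE, were profiled on the BD Rhapsody system, 1 library per group. The authors deposited counts as whole numbers of UMIs per cell and gene, without normalization, as reads, raw UMIs and UMIs after error correction (RSEC), and the last were used. Per the file headers the counts came from the BD Rhapsody WTA Analysis Pipeline 1.11 with GRCm38 and GENCODE vM19, introns included and cells called by the refined method, whereas the methods state version 1.0. Use of strand and the treatment of reads shared by near-identical genes are not given in the sources used here.

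Cells with 500 to 6000 genes and under 25% mitochondrial UMIs were kept. A marker was on in a cell where its level exceeded its mean over all kept cells. A cell took the class with the largest share of markers on, if at least 3 were on and each other class had under 0.5 of that share, and an EC subgroup needed 2. This threshold was set after the data had been seen, and the members, lists and tests were chosen with earlier results of these data known. UMIs were summed per class and library and scaled to CPM, with exact Poisson intervals for levels, exact conditional binomial intervals for ratios, Clopper-Pearson intervals for shares and Newcombe intervals for their differences, all at 95%. Genes with at least 20 UMIs over both libraries entered the 1.5-fold counts. Cells were thinned to 1000 UMIs with seed 1. Cells were told by sex from Xist and Y-linked UMIs. Doublets were kept, and Scrublet, run in scanpy 1.11.5, marked 1725 (6.52%) and 1948 (6.64%) cells. TMM factors came from edgeR 4.0.16 under R 4.3.3, and other steps used Python 3.11.15 and SciPy 1.17.1. The interval procedure was tested on simulated sums of Poisson counts, the model that it assumes, so that the gathering of UMIs in some cells was not covered. Named were mainly the members of each role group with the most UMIs or with the largest or smallest ratio, up to 4 further pathway genes per class by ratio, and 6 regulators. A result that this rule would name is not reported here.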

Additional observations from a re-analysis of the deposited data

Results flagged for a closer look

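The summed ratios of some cell groups lay on opposite sides of 0, and these differences were not tested, since each group had 1 library. Within ECs, the log2 ratio of the S members was 0.49 in metaphyseal and -0.39 in arterial cells, and that of the G2/M members 0.31 and -0.60. The arterial values in Control rest on 332 cells, and the EC subgroups were not shown to hold the same kind of cells in both libraries. Within the stromal lists, the G2/M ratio was 0.42 in marrow stromal cells against -0.16 in osteoblast-gated and -0.22 in fibroblast-gated cells. The marrow stromal cells were not shown to be of the same kind in both libraries. Between classes, the S ratio was 0.39 in ECs and -0.084 in stromal cells, and the G2/M ratio 0.58 and -0.25. The stromal S ratio had the opposite sign with TMM scaling, and both stromal ratios did with the shares of the lists held constant. No group had the 4 samples that a search for outlying samples needs.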

How the results depend on the processing

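Over 20 results and 170 alternatives, 117 values stayed within the counting interval or 1.5 times the count, 48 moved and 5 reversed, and the cause was not tested. Values are log2 ratios of S and G2/M members unless named as points or members. Reversals came with TMM scaling in stromal S (0.105), with subgroup shares held at Control, an alternative chosen after seeing the data, in stromal S (0.21) and G2/M (0.059), and in haematopoietic S under 10% mitochondrial UMIs (0.014) and in cells with Xist (0.033). The EC share difference was 5.46 points at 2000 UMIs, 4.83 unthinned, 5.23 for 2 or more and 2.60 for 5 or more members, and 2.48 with shares held. With shares held, EC ratios were 0.24 and 0.31, and haematopoietic ones -0.10 and -0.067. In cells with Xist the ratios were 0.35 and 0.42 in ECs, -0.011 and -0.41 in stromal cells, 0.30 and 0.032 in chondrocytes, and -0.044 for haematopoietic G2/M. In cells with Y-linked UMIs they were 0.50 and 0.90 in ECs, -0.020 and -0.39 in stromal cells, 0.16 and 0.56 in chondrocytes, and -0.14 and -0.040 in haematopoietic cells. The stricter gate gave 0.55 for EC G2/M, -0.15 and -0.30 in stromal cells, 0.13 and 0.16 in chondrocytes and -0.004 for haematopoietic S. Without Hmgb2, Slbp and Pcna the ratios were 0.46 and 0.55 in ECs, 0.20 for chondrocyte G2/M, and -0.004 and -0.036 in haematopoietic cells. TMM scaling gave 0.55, -0.059, 0.23 and -0.010 for G2/M in ECs, stromal cells, chondrocytes and haematopoietic cells, and 0 stromal members past 1.5-fold lower. Under 10% mitochondrial UMIs gave -0.027 for stromal S and -0.005 for haematopoietic G2/M. Means of per-cell CPM gave 0.35 for EC S, -0.052 for stromal G2/M, 0.19 and 0.18 in chondrocytes and -0.033 for haematopoietic G2/M, and leaving out Scrublet-marked cells gave 0.18 for chondrocyte G2/M. Leaving out cells with a Ptprc UMI was not run for haematopoietic cells. No paired analysis was possible because each group holds 1 library, and leaving out a library leaves no comparison. Genes under 20 UMIs were left out of the 1.5-fold counts.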

Other observations

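Cells outside the 4 classes carried the members too. Mural-gated cells, the contractile cells around vessels, were at 361 CPM in Control and 341 CPM in Dach1OE for S members (-0.08, -0.20 to 0.04) and at 591 and 681 CPM for G2/M members (0.20, 0.12 to 0.30), and 3.02% and 3.80% of them had 3 or more members. Cells with mixed markers were at 933 and 954 CPM for S and 1750 and 1892 CPM for G2/M members, and ungated cells at 1048 and 1284 CPM and at 2317 and 2603 CPM. Of the ungated cells 28.0% and 38.8% had 3 or more members.

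Megakaryocyte-gated cells, 468 in Control and 440 in Dach1OE, were at 890 and 695 CPM for S members (-0.36, -0.46 to -0.26) and at 2849 and 2782 CPM for G2/M members (-0.03, -0.09 to 0.02). Of their S members 16 of 17 had ratios below 0, 8 of them with intervals clear of it, against 54.1% and 7.05% of all genes in these cells, and Pcna was at 67.3 and 41.1 CPM (-0.71, -1.11 to -0.32). The spindle protein Ckap2l was at 257 and 245 CPM in these cells against 109 and 106 CPM in erythroid cells and 122 and 104 CPM in leukocytes, whereas Hmgb2 was at 770 and 758 CPM against 2601 and 2526 CPM in erythroid cells.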
